A study of Mus musculus with 3 samples.

Results

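The 3 autosomal windows of 1 Mb that hold the most H3K27ac and H3K4me1 regions, both marks added, in aged mouse hematopoietic stem cells are described here. They lie (build mm9) on chromosome 11 from 106000001 to 107000000, on chromosome 10 from 80000001 to 81000000 and on chromosome 7 from 87000001 to 88000000. The members are all deposited H3K27ac and H3K4me1 regions that overlap these windows, 508 of 93413 H3K27ac regions and 665 of 155027 H3K4me1 regions. Together they are 1173 of 248440 regions, or 0.472%, on 0.121% of the autosomal length. The windows were picked by the number of regions they hold, so that number is given as a description. The length covered, the overlap, the height and the width come from the same lists and are descriptions too.

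Chromatin immunoprecipitation sequencing was done on primary stem cells from bone marrow of C57BL/6 mice aged 24 months, sorted as SP-KSL-CD150+ cells, a gate for stem cells that export dye, carry c-Kit, Sca-1 and CD150 and lack lineage markers. H3K27ac and H3K4me1 were measured in 1 library each, each labelled a technical replicate of the first biological replicate. An input library from the same cells was not analysed here. No treatment or mutation is given for these cells, and with 1 library per mark nothing below was checked in a second library and no test was run. Whether the cells carry stem cell genes could not be checked, because regions were not tied to genes.

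H3K27ac is an acetyl group placed on histone H3 by the coactivators p300 and CBP at active promoters and enhancers. H3K4me1 is a methyl group placed by the MLL3 and MLL4 enzymes. It covers enhancers, active or poised, and lies beside active promoters, where the start site itself carries a higher methylation state of the same residue. A gap in H3K4me1 filled by H3K27ac is therefore a familiar picture at promoters, whereas H3K27ac inside H3K4me1 is familiar at enhancers.

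No annotation of build mm9 was used here, so no measured region is assigned to a gene. As background, these stretches are known to hold many genes of blood cells and of basic cell functions. The chromosome 11 stretch is known for Pecam1 and Icam2, adhesion molecules of endothelial and blood cells, Cd79b, a part of the B cell receptor, Ddx5, an RNA helicase, and Smarcd2, a subunit of the SWI/SNF chromatin remodeler. The chromosome 10 stretch is known for Dot1l, the methyltransferase of histone H3 lysine 79, Gadd45b, a stress-response gene, Zbtb7a, a repressor of fetal globin, and Eef2, a translation factor. The chromosome 7 stretch is known for Fes, a tyrosine kinase of myeloid cells, Furin, a protease that matures precursor proteins, Idh2, a mitochondrial dehydrogenase, and Blm, a DNA helicase. In the RefSeq gene order of assembly GRCm38.p6, 32 genes run from Limd2 to Kpna2 on chromosome 11, 57 from Mknk2 to Nfic on chromosome 10 and 28 from Zfp710 to Iqgap1 on chromosome 7. Of these 117 genes 88 are protein-coding, with 23, 47 and 18 in the same order, and 6 are miRNA genes. The end genes of each run were chosen from general knowledge as lying inside the windows, and the runs need not fill the windows.

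RefSeq promoter sequences were found for 75 of these 88 protein-coding genes, 98 promoters of 300 bases in all. Their median GC content was 62%, with a median of 24 CpG dinucleotides, against 56.3% and 13 for the 21165 promoters of the other 17417 protein-coding genes in the same table. At least 1 CG, which reads the same on both strands, was present in 100% of the 98 promoters and in 95.4% of the others. A promoter from each run is shown to give this range of CpG content, as the 250 bases before the start site, with CG in capitals. Their coordinates are those of GRCm38.p6 and cannot be set against the mm9 coordinates elsewhere in the text, and which measured region lies on them was not determined.
Smarcd2 (chr11:106267633-106267882, minus strand, 4 CG): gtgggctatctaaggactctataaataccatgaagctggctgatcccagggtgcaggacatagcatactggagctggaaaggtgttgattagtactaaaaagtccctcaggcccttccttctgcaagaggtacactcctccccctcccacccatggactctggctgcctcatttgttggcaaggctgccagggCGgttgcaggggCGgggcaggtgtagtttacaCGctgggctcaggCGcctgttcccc
Dot1l (chr10:80754953-80755202, plus strand, 44 CG): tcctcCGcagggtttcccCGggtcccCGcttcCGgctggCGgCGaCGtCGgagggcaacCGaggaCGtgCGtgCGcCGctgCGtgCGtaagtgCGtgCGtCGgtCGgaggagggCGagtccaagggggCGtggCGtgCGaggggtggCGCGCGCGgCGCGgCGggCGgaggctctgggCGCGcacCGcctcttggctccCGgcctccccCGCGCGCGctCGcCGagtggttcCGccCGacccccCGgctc
Fes (chr7:80387947-80388196, minus strand, 13 CG): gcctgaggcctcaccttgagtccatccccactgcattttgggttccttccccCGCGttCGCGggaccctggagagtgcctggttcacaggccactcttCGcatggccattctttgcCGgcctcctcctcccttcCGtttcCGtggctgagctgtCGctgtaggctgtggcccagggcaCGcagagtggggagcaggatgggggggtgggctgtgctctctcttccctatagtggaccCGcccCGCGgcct
The Dot1l promoter is 78.4% G and C and dense in CG over its whole length. The Fes promoter (65.2% G and C) holds its 13 CG in many separate places. In the Smarcd2 promoter (56.4%) the 4 CG all lie in the part nearest the start site.

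The 3 windows were crowded with both marks at once. The chromosome 11 window held 399 regions (171 of H3K27ac and 228 of H3K4me1), the chromosome 10 window 395 (171 and 224) and the chromosome 7 window 379 (166 and 213). The median of the 2462 autosomal windows was 84 regions (quartiles 22 and 158), and the 99th percentile was 313. The next window down, on chromosome 11 from 88000001 to 89000000, held 375, and the tenth held 362, so the third and the fourth window differed by 4 regions. Over the 3 windows there were 169.3 H3K27ac and 221.7 H3K4me1 regions per Mb, against 37.2 and 61.3 per Mb over the rest of the autosomes.

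The rank depends on which mark is counted and how. By H3K27ac alone the windows on chromosomes 11 and 10 tied for place 7 and the chromosome 7 window was at place 9, behind windows with up to 189 H3K27ac regions. By H3K4me1 alone they were at places 1, 3 and 7. The window on chromosome 17 from 84000001 to 85000000 had the most acetylated sequence, 205.2 kb. The chromosome 10 window had the most H3K4me1 sequence (369.1 kb) and the most sequence under either mark (405.5 kb) of all autosomal windows.

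**Figure D1:**
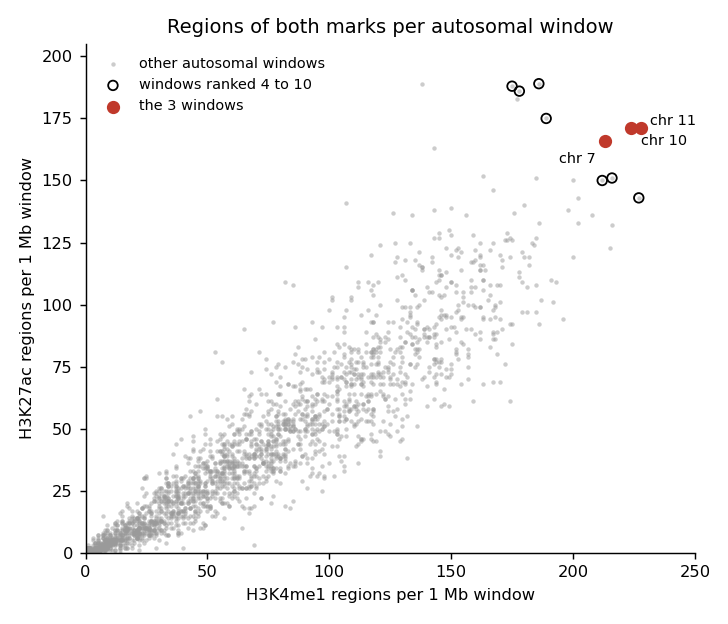
Each point is an autosomal window of 1 Mb, by its number of H3K4me1 regions (x axis) and H3K27ac regions (y axis). The 3 windows (filled) have 213 to 228 H3K4me1 and 166 to 171 H3K27ac regions. The windows ranked 4 to 10 (open circles) are high for both marks as well, with at least 175 H3K4me1 and 143 H3K27ac regions each. The 99th percentiles of all windows are 185 and 136.4. Each of the windows ranked 4 to 10 has either at most 189 H3K4me1 or at most 151 H3K27ac regions.

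The marked sequence took a large part of each window. Either mark covered 33.9% of the chromosome 11 window, 40.6% of the chromosome 10 window and 33.6% of the chromosome 7 window. H3K27ac covered 11.9%, 14.0% and 11.4% of the windows in that order, and H3K4me1 31.0%, 36.9% and 31.4%. Over all 3 windows H3K27ac covered 12.4%, against 2.22% of the rest of the autosomes, a ratio of 5.58. H3K4me1 covered 33.1%, against 6.91% of the rest, a ratio of 4.79.

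The crowding ended sharply on some sides. The 1 Mb before the chromosome 11 window held 158 regions and the 1 Mb after it 190. The chromosome 7 window stood between 165 regions before and 217 after. The chromosome 10 window was the end of a longer crowded stretch, since the 1 Mb before it held 370 regions (143 of H3K27ac and 227 of H3K4me1) and the 1 Mb after it held 64. With the frame moved 500 kb towards the chromosome start the chromosome 10 count stayed at 391, and moved the other way it was 258. Moved in the same 2 ways, the chromosome 11 frame held 313 and 319 regions and the chromosome 7 frame 259 and 355.

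Within each window the regions gathered into a few hubs, shown in the map of regions. Merging both marks gave 251 marked stretches on chromosome 11, 229 on chromosome 10 and 228 on chromosome 7. Stretches with both marks numbered 86, 98 and 76, stretches of H3K4me1 alone 134, 113 and 129, and stretches of H3K27ac alone 31, 18 and 23. Those with both marks were the long ones, with a median of 2254 bp on chromosome 11, 2563 bp on chromosome 10 and 2072 bp on chromosome 7. Stretches of H3K4me1 alone had medians of 485, 502 and 494 bp, and those of H3K27ac alone 283, 357 and 250 bp. A stretch with both marks joins regions of each list, so its greater length follows in part from the merging. Neighbouring stretches were close together, with a median gap of 629 bp on chromosome 11, 644 bp on chromosome 10 and 598 bp on chromosome 7.

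**Figure D2:**
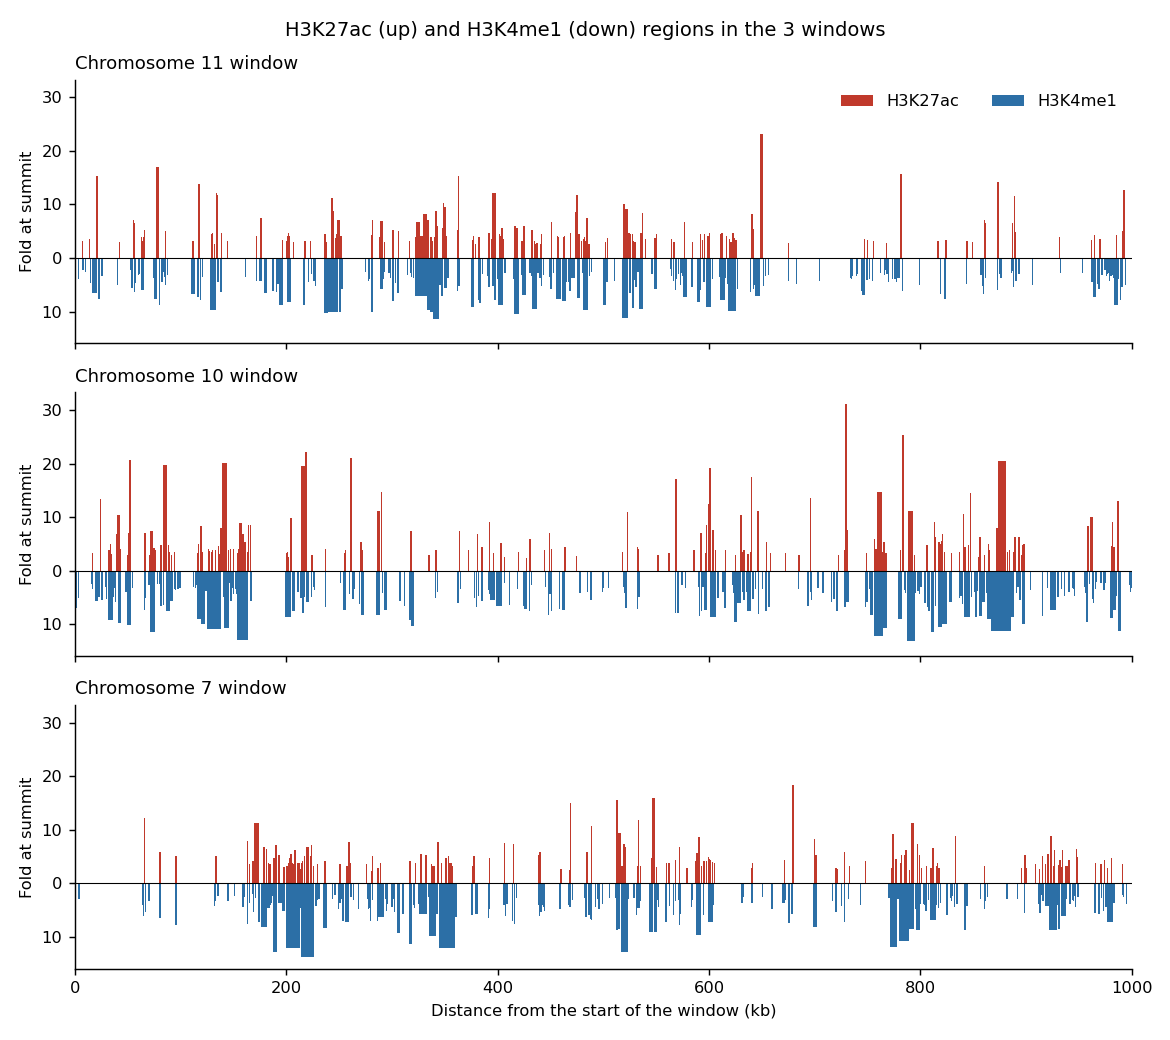
Regions of H3K27ac (red, upward) and H3K4me1 (blue, downward) along the 3 windows, by distance from the window start in kb (x axis) and the authors' fold at the summit (y axis, both directions positive); regions narrower than 1.2 kb are drawn 1.2 kb wide. The chromosome 10 window holds 7 of the 8 H3K27ac regions of 20-fold or more, and the chromosome 7 window has a gap of 58.8 kb near its start.

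The chromosome 11 window was crowded in its middle and thin towards its end. In bins of 50 kb the acetylated length ranged from 0.231 to 18.0 kb, with a median of 4.78 kb, and the highest bin lay 300 kb from the window start. From 650 kb on, no bin held more than 4.07 kb of H3K27ac, and the 2 longest gaps without either mark lay there, 27.7 kb from 106705416 to 106733110 and 25.1 kb from 106906089 to 106931188. The last bin, from 950 kb, was rich in H3K4me1 (23 summits, 21.2 kb) with 7 H3K27ac summits over 3.79 kb.

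The chromosome 10 window had an acetylated hub towards each end and a middle that was thinner in most bins. In the middle, the bin from 600 kb held 8.05 kb of H3K27ac and 26.3 kb of H3K4me1. A joined domain of 21 H3K27ac regions lay there, from 80585291 to 80657607. The 6 bins of its first 300 kb held 7.01 to 13.7 kb of H3K27ac each, and the bin from 850 kb held the highest values of both marks, 18.4 kb of H3K27ac and 40.6 kb of H3K4me1. The bin just after it, from 900 kb, held 11 H3K4me1 summits over 12.3 kb and no H3K27ac at all. The longest gap without either mark was 31.1 kb, from 80167320 to 80198440.

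The chromosome 7 window was the most uneven. The 5 bins with most acetylation held 58.0% of its acetylated length, against 49.9% on chromosome 11 and 48.8% on chromosome 10. Its first 150 kb held 4 H3K27ac summits and the 2 longest gaps, 58.8 kb from 87004300 to 87063082 and 35.1 kb from 87096110 to 87131204. The bins from 150 and 200 kb held 14.4 and 16.5 kb of H3K27ac, and further hubs lay from 500, 750 and 900 kb (12.9, 10.7 and 11.4 kb).

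The marks rose and fell together along the windows, but not in every bin. Spearman's rho between acetylated and H3K4me1 length over the 20 bins was 0.851 on chromosome 11, 0.824 on chromosome 10 and 0.897 on chromosome 7. These are descriptions, since neighbouring bins of 1 library pair share their source. On chromosome 7 the bin from 300 kb had nearly as much H3K4me1 (31.8 kb) as the bin from 200 kb (33.2 kb), but 5.67 kb of H3K27ac against 16.5 kb.

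**Figure D3:**
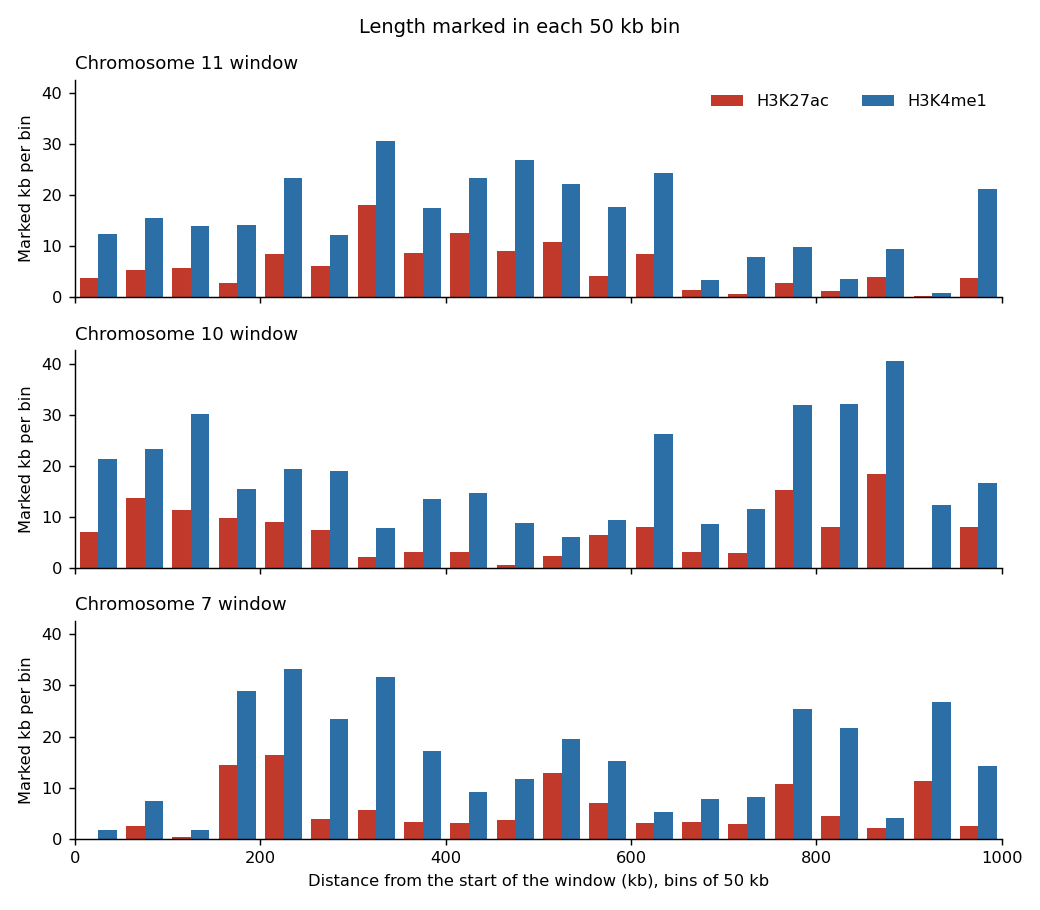
Length covered by H3K27ac (red) and H3K4me1 (blue) in each bin of 50 kb (y axis, kb) by distance from the window start (x axis, kb). The highest bin for both marks lies 850 kb into the chromosome 10 window, and the bin after it has H3K4me1 alone.

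Joining H3K27ac regions over gaps of up to 12500 bp gave 67 acetylated domains in the windows, 21 each on chromosomes 11 and 10 and 25 on chromosome 7. Of these, 10 held 20 or more regions, out of 482 such domains among 30221 in all, and 7 were within the first 302 (the top 1%) by acetylated length. None of the 67 was among the 10 largest domains of the genome, as the highest place was 70. The 2 largest domains of each window held 41.5% of the acetylated length of the domains on chromosome 11, 38.9% on chromosome 10 and 46.7% on chromosome 7.

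The largest domain of the 3 windows was that on chromosome 10 from 80780306 to 80898018. Over 117.7 kb it contained 38 H3K27ac regions over 33.6 kb, and H3K4me1 covered 73.3% of the span. Of these regions 10 had their summit in a gap with H3K4me1 at 1 kb on both sides. The second domain from chromosome 10, from 80115190 to 80166108, was more compact, with 20.8 kb acetylated in 50.9 kb and H3K4me1 on 81.9%. On chromosome 7 the first domain, from 87162636 to 87237436, contained 31 H3K27ac regions with 30.9 kb in a span of 74.8 kb, of which 76.4% carried H3K4me1. None of its summits lay in a gap with H3K4me1 at 1 kb on both sides. Its highest summit was 11.2-fold, and there H3K4me1 was absent at the summit and at 1 kb on both sides. The region of that summit was 4318 bp wide, however, and met 3 H3K4me1 regions of up to 7.21-fold. The second, from 87512188 to 87604942, had 30 regions over 22.2 kb and H3K4me1 on 40.3% of 92.8 kb. On chromosome 11 the domain from 106375740 to 106486228 held 41 H3K27ac regions over 28.2 kb, and the domain from 106280231 to 106363201 held 27 over 25.1 kb. H3K4me1 covered 54.7% and 49.5% of these spans.

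Acetylated regions of the windows met H3K4me1 more often than those elsewhere. Of the 508 H3K27ac regions 436 shared at least 1 bp with H3K4me1 (85.8%, exact 95% binomial interval 82.5 to 88.7%), against 71.9% of the rest of the autosomes (interval 71.6 to 72.2%) and 72.0% over all 92455 autosomal H3K27ac regions. Such intervals take in counting error alone: reads had no molecular identifiers, so they need not be separate molecules, and neighbouring regions share their source. The share was 81.9% on chromosome 11, 89.5% on chromosome 10 and 86.1% on chromosome 7, each with an interval above the value for the rest. Among regions of both lists with a −log10 q of 5 or more the share was 90.3% in the windows (interval 85.9 to 93.7%) and 86.1% in the rest. With 10 or more it was 86.4% in the windows (interval 79.3 to 91.7%) and 79.9% in the rest, and both intervals include the value for the rest. The windows ranked 4 to 10, which were crowded as well, gave 85.7% (1013 of 1182, interval 83.6 to 87.6%), so the share is not particular to these 3. H3K4me1 took 33.1% of the windows and 6.91% of the rest, which by position alone makes meetings more frequent in the windows, and its part in the difference was not tested.

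The excess lay among acetylated regions below 6-fold. From 6-fold up at least 94.0% of the rest met H3K4me1, so an excess could hardly appear there. Below 3-fold, 37 of 55 H3K27ac regions of the windows met H3K4me1 (67.3%), against 48.5% of 12967 in the rest of the autosomes. From 3-fold to 4-fold the shares were 81.3% (143 of 176) and 60.9%, and from 4-fold to 6-fold 93.9% (139 of 148) and 83.1%. From 6-fold to 10-fold they were 92.2% (71 of 77, interval 83.8 to 97.1%) and 94.0%, and at 10-fold or more 88.5% (46 of 52, interval 76.6 to 95.6%) and 94.1%, where the interval of the windows includes the value for the rest.

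**Figure D4:**
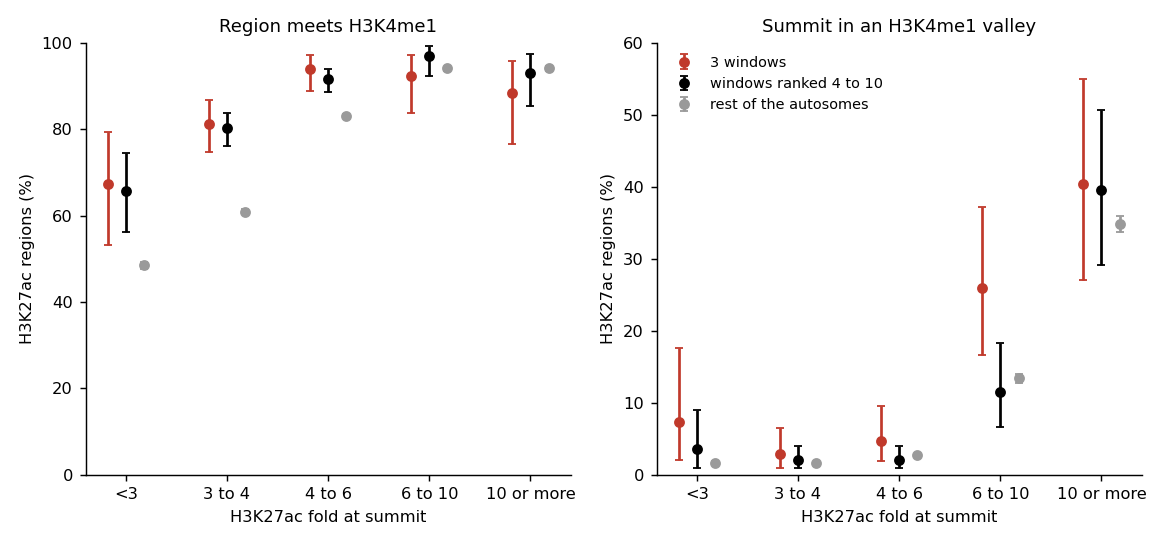
Share of H3K27ac regions (y axis, %) that meet H3K4me1 (left) and whose summit lies in an H3K4me1 valley (right), by class of the authors' fold (x axis); bars are exact 95% binomial intervals. Below 6-fold the 3 windows (67.3 to 93.9%) lie above the rest of the autosomes (48.5 to 83.1%) for meeting H3K4me1, and the windows ranked 4 to 10 do so as well (65.8 to 91.6%).

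H3K4me1 regions of the windows also met H3K27ac more often. The count was 289 of 665 (43.5%, interval 39.7 to 47.3%), against 33.9% of the rest (interval 33.7 to 34.2%) and 34.0% over all 151952 autosomal H3K4me1 regions. It was 41.2% on chromosome 11, 49.6% on chromosome 10 and 39.4% on chromosome 7, where the interval of 32.8 to 46.3% includes the value for the rest. The windows ranked 4 to 10 gave 42.1%. Meeting followed width, from 8.02% of the 212 regions under 500 bp (11.2% in the rest) to 85.6% of the 111 regions from 2 to 5 kb (75.8%). Of the 31 regions of 5 kb or more 30 met H3K27ac (96.8%), against 96.1% in the rest. In the windows ranked 4 to 10 this widest class gave 98.7%. Since 1 shared bp counts as a meeting, wider regions meet more easily by width alone, and the part of this was not tested. In the windows 87 H3K4me1 regions (13.1%) met 2 or more H3K27ac regions, against 7.80% in the rest and 13.8% in the windows ranked 4 to 10. The most was 10, for 1 region on chromosome 7.

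By length, 76.5% of the acetylated sequence of the windows lay inside H3K4me1, against 66.3% in the rest, and 28.7% of the H3K4me1 sequence was acetylated, against 21.3%. The share of acetylated sequence was 76.1% on chromosome 11, 74.0% on chromosome 10 and 80.2% on chromosome 7.

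H3K27ac regions that lacked H3K4me1 were often right beside it, whereas most H3K4me1 regions that lacked H3K27ac were not. Of the 72 H3K27ac regions of the windows without H3K4me1, 50 (69.4%, interval 57.5 to 79.8%) lay within 1 kb of one, against 34.3% of 25837 in the rest and 50.9% of 169 in the windows ranked 4 to 10. The strongest such region on chromosome 10 lay from 80639372 to 80640273 (17.4-fold, 58 summit reads), 85 bp from H3K4me1. On chromosome 11 it lay from 106133274 to 106134059 (12.1-fold, 40 reads), 42 bp away, and on chromosome 7 from 87947433 to 87948099 (6.50-fold, 21 reads), 170 bp away. All 3 had H3K4me1 at 1 kb on both sides, so they are gaps in H3K4me1 filled by acetylation and not places far from it. Of the 376 H3K4me1 regions without H3K27ac, 117 (31.1%) lay within 1 kb of acetylation, against 18.8% in the rest. In the windows ranked 4 to 10 this was 26.1% of 801. The windows were picked for their number of regions, which by position alone brings the marks closer together. The part of this in the shares within 1 kb was not tested. The strongest on chromosome 7, from 87305016 to 87307211 (9.30-fold, 48 reads), lay 9133 bp from the nearest H3K27ac. On chromosome 10 the strongest lay from 80851861 to 80853388 (8.64-fold), 1446 bp away, and on chromosome 11 from 106382709 to 106384640 (8.32-fold), 549 bp away.

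Acetylation summits in an H3K4me1 valley, with H3K4me1 at 1 kb to the left and to the right and none at the summit, were most frequent on chromosome 10. There were 57 among the 508 H3K27ac summits (11.2%, interval 8.61 to 14.3%), against 5.83% in the rest and 5.85% over all autosomal summits. With H3K4me1 looked for at 500 bp the share was 3.94% in the windows, and its interval of 2.42 to 6.02% includes the 3.12% of the rest. The chromosome 10 window held 31 of them (18.1% of 171, interval 12.7 to 24.7%). Chromosome 11 had 14 (8.19%, interval 4.55 to 13.4%) and chromosome 7 had 12 (7.23%, interval 3.79 to 12.3%), and both intervals include the value for the rest. Without the chromosome 10 window the share was 7.72% (interval 5.10 to 11.1%, which includes the value for the rest), and in the windows ranked 4 to 10 it was 6.01% (71 of 1182). Of the 55 chromosome 10 summits outside H3K4me1, 56.4% were in such valleys, against 14.0% in the rest of the autosomes. This share was 29.2% on chromosome 11, 27.3% on chromosome 7 and 24.4% in the windows ranked 4 to 10. H3K4me1 covered 36.9% of the chromosome 10 window and 6.91% of the rest, and its part in these shares was not tested. In the rest of the autosomes the valley share was 1.69% below 3-fold and 34.9% at 10-fold or more. The part of fold in the chromosome 10 share was not tested either.

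The acetylation summit lay inside H3K4me1 in 361 regions of the windows (71.1%, interval 66.9 to 74.97%), against 58.4% in the rest and 75.4% in the windows ranked 4 to 10. From 4-fold to 6-fold this was 87.8% (130 of 148), against 75.5%, and at 10-fold or more it was 25% (13 of 52), against 25.8%. Within the windows, too, weak and medium summits lay mostly inside H3K4me1 and strong ones mostly outside.

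H3K27ac summits of the windows were a little higher in the median than in the rest of the autosomes, but not among the strongly called regions. The median was 4.14-fold in each of the 3 windows, against 3.84-fold in the rest of the autosomes, and the upper quartile was 5.61 on chromosome 11, 7.39 on chromosome 10, 5.47 on chromosome 7 and 5.32 in the rest. The fold values are the authors' own, the summit pileup over the local background. The ratio of medians was 1.08, but 0.967 among regions with a −log10 q of at least 10. A summit held a median of 14 reads in the windows and 13 in the rest, and the lowest member had 8. Widths had a median of 408 bp in the windows and 354 bp in the rest. The windows ranked 4 to 10 had the same median fold of 4.14 and median of 14 reads, and a median width of 402 bp. These medians are therefore not particular to the 3 windows.

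Strong acetylation was concentrated in the chromosome 10 window. Regions of 10-fold or more numbered 27 there (15.8%, interval 10.7 to 22.1%), 16 on chromosome 11 (9.36%) and 9 on chromosome 7 (5.42%), against 7.73% in the rest and 7.75% over all autosomal regions. Regions of 20-fold or more numbered 7 on chromosome 10 (4.09%, interval 1.66 to 8.25%), 1 on chromosome 11 and 0 of 166 on chromosome 7, where the interval reaches 2.20%, against 1.06% in the rest. The 7 on chromosome 10 are named because of their number, after their values were seen. They lay from 80051032 to 80053104 (20.7-fold), 80139437 to 80143409 (20.1-fold), 80217925 to 80219511 (22.2-fold), 80260164 to 80262272 (21.0-fold), 80729121 to 80730126 (31.0-fold), 80782754 to 80784558 (25.4-fold) and 80873927 to 80880876 (20.4-fold). They were spread over the window, from 52.8 to 876.1 kb after its start, and 4 of the 7 had their summit in an H3K4me1 valley. Strong summits often lay in valleys elsewhere too. Among regions of 10-fold or more the valley share was 48.1% on chromosome 10 (13 of 27, interval 28.7 to 68.1%). It was 39.5% in the windows ranked 4 to 10 and 34.9% in the rest, and the interval includes both values.

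The highest H3K27ac summits differed in their surroundings. The 31.0-fold region on chromosome 10 was narrow, at 1006 bp, held 104 summit reads and met 2 H3K4me1 regions of up to 6.74-fold around a valley. The highest on chromosome 11, from 106648365 to 106651318, reached 23.0-fold with 77 reads, and H3K4me1 was absent at its summit and at 1 kb on both sides, although an H3K4me1 region of 5.27-fold touched it. It lay 650.1 kb from the window start, where the dense part of that window ended. The next on chromosome 11 lay from 106076845 to 106079398 (16.9-fold, H3K4me1 on 1 side) and from 106780416 to 106782792 (15.7-fold, inside H3K4me1). On chromosome 7 the highest lay from 87678672 to 87680716 (18.3-fold, 61 reads, H3K4me1 on 1 side), from 87545886 to 87548841 (16.0-fold, in a valley) and from 87512188 to 87513803 (15.6-fold, inside H3K4me1).

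H3K4me1 regions of the windows were wider and reached high folds more often. Their median width was 841 bp, against 693 bp in the rest, and it was 782 bp on chromosome 11, 1049 bp on chromosome 10 and 709 bp on chromosome 7. The median fold was 4.31 on chromosome 11, 5.05 on chromosome 10 and 4.21 on chromosome 7, against 4.21 in the rest, so only the chromosome 10 window stood clearly above in both. Of the 665 regions 29 reached 10-fold (4.36%, interval 2.94 to 6.20%), against 1.13% of the rest and 1.14% over all autosomal regions, and 31 were 5 kb wide or more (4.66%, interval 3.19 to 6.55%), against 2.06%. The windows ranked 4 to 10 had 2.82% and 5.57%, with a median width of 778 bp and a median fold of 4.38. A summit held a median of 22 reads in the windows and 21 in the rest.

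The highest H3K4me1 summits were broad, and the H3K27ac they met ranged from 5.91-fold to 14.8-fold at its highest. The highest of the 3 windows lay on chromosome 7 from 87213702 to 87226274, 12.6 kb wide, at 13.7-fold with 64 reads, and met 7 H3K27ac regions of up to 7.09-fold. Next on chromosome 7 were those from 87187647 to 87191557 and from 87516450 to 87523076, at 12.8-fold each, with H3K27ac of up to 7.09-fold and 9.38-fold. On chromosome 10 the 3 highest lay from 80787297 to 80794806 (13.1-fold), 80153616 to 80163910 (12.8-fold) and 80756516 to 80764326 (12.2-fold), with H3K27ac of up to 11.2-fold, 8.86-fold and 14.8-fold. On chromosome 11 they lay from 106338633 to 106344590 (11.4-fold), 106517695 to 106523425 (11.2-fold) and 106415392 to 106419770 (10.5-fold), with H3K27ac of up to 8.86-fold, 10.05-fold and 5.91-fold. Each of these 9 regions met at least 2 H3K27ac regions.

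The widest regions showed contrasting pairings of the marks. The widest H3K4me1 region of the 3 windows, on chromosome 10 from 80867069 to 80885911, spanned 18.8 kb at 11.2-fold. It contained the widest H3K27ac region, 6950 bp from 80873927 to 80880876 at 20.4-fold, with the summits of the 2 marks at 80875875 and 80876138. On chromosome 7 the widest H3K4me1 region, from 87344318 to 87359732, spanned 15.4 kb at a like 12.0-fold, but its 6 H3K27ac regions reached no more than 5.02-fold. The widest on chromosome 11, from 106321877 to 106332999, spanned 11.1 kb at 7.10-fold where the local background was raised 1.87 times, and met 6 H3K27ac regions of up to 8.15-fold. The widest H3K27ac regions on chromosomes 11 and 7 lay from 106394878 to 106398683 (3806 bp, 12.1-fold) and from 87169312 to 87173629 (4318 bp, 11.2-fold).

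Over the 3 windows together the local background was not raised more often than elsewhere. It was over 1.05 times the genome-wide level at 26.6% of their H3K27ac summits (interval 22.8 to 30.6%), against 26.4% in the rest and 26.4% over all autosomal summits. By window this was 31.6% on chromosome 11 (interval 24.7 to 39.1%), 19.9% on chromosome 10 (14.2 to 26.7%) and 28.3% on chromosome 7 (21.6 to 35.8%). Each of these intervals includes the value for the rest. For H3K4me1 it was 30.5% (interval 27.04 to 34.2%), against 37.4% in the rest and 37.4% over all autosomal summits, and the chromosome 10 window was lowest, at 23.7%. The highest value in the windows was 2.19 times for H3K27ac and 2.62 times for H3K4me1.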

How the data were processed

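The submitters' processing notes name the aligner Bowtie2 2.0.6, the mouse build mm9 and the peak caller MACS2 2.0.10.20131216. Not given in the sources used here are the caller's options, its control and the handling of duplicates. No header line is present, and their columns were read in narrowPeak order. The deposited lists, 1 per library, give per peak the authors' fold ratio at the summit, −log10 p and −log10 q values, the deposited score (a whole number, not used) and the summit offset.

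Regions overlapping a window by 1 bp were members, and coordinates count from 1. Summit reads and local background were recovered from fold and −log10 p, matching all 93413 and 155027 summits within 0.001, if fold is (reads + 1)/(background + 1) and p a Poisson probability; the commonest background, taken as genome-wide, was 2.38 H3K27ac and 3.75 H3K4me1 reads. Total depth is unknown. A raised background is over 1.05 times that level. Shares have exact Clopper-Pearson 95% intervals. Interval functions and read recovery were tested on simulated data. Chromosome lengths came from GenomeInfoDb 1.38.1. Calculations used Python 3.11.15 with numpy 2.4.6 and scipy 1.17.1, tables pandas 2.3.3, and figures matplotlib 3.10.9.

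Members, comparisons and alternatives were chosen with earlier results of these data known. Named regions were, per window, the 3 of highest fold and the widest of each mark, the strongest without the other mark, and the 2 largest domains and longest gaps. Alternatives changed the window frame, q threshold, overlap rule, valley distance and joining gap.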

Additional observations from a re-analysis of the deposited data

How the results depend on the processing

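Of 71 alternative values, 22 stayed within their counting interval (shares), a factor of 1.5 (counts) or the second decimal (ratios), 48 moved and 1 reversed. The reversed value was the ratio of median H3K27ac fold of the windows over the rest (1.08 as reported), 0.967 for −log10 q values from 10 up and 1.11 from 5 up. The cause was not tested. The H3K4me1 fold ratio (1.05) was 1.10 at both limits. The width ratios were 1.16 and 1.05 for H3K27ac (1.15 as reported) and 1.18 at 10 for H3K4me1 (1.21).

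In the windows on chromosomes 11, 10 and 7, keeping −log10 q values from 5 up left 237, 246 and 220 regions, and from 10 up left 129, 171 and 118. Moved by 500 kb towards the chromosome start the frames held 313, 391 and 259, and moved the other way 319, 258 and 355. The ranks 1, 2 and 3 became 6, 1 and 8 by length under either mark, 6, 3 and 9 by H3K27ac length, and 11, 1 and 10 by H3K4me1 length. They were 2, 1 and 4 for −log10 q values from 5 up and 8, 1 and 15 from 10 up, so only the chromosome 10 window stayed among the first 3 in all of these.

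H3K27ac regions with H3K4me1 (85.8% in the windows, 71.9% in the rest) were 76.8% and 62.1% where a meeting took 50% of the shorter region and 95.7% and 81.5% where 1 kb could lie between. They were 90.3% and 86.1% for −log10 q values from 5 up, and 86.4% and 79.9% from 10 up. H3K4me1 regions with H3K27ac (43.5% and 33.9%) were 36.2% and 26.9%, 61.1% and 46.3%, 41.7% and 31.0%, and 39.9% and 28.3% in the same order. Valley summits (11.2% and 5.83%) were 3.94% and 3.12% with H3K4me1 looked for at 500 bp, 8.86% and 3.24% at 2 kb, and 15.8% and 10.6% for −log10 q values from 5 up. The interval of the windows included the value for the rest for valleys at 500 bp, for valleys without chromosome 10 (5.10 to 11.1%) and for H3K27ac regions with H3K4me1 under both limits on q, so no excess is shown there. Joining over 5 kb gave 151 domains in place of 67. Leaving out 1 window at a time was chosen after seeing the data. It gave 84.0 to 87.8% and 40.4 to 45.4% for the marks meeting and 7.72 to 13.2% for valleys, the lowest without chromosome 10. No paired analysis was possible because only 1 library was made for a mark. No member summit had under 8 H3K27ac or 10 H3K4me1 reads, and total depth is unknown.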
